A study of Mus musculus with 23 samples.

Results

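The genes described here encode the nuclear-encoded subunits of oxidative phosphorylation. They were taken from the count tables of a mouse hippocampus series by symbol: Nduf genes of the a, b, c, s and v series, Sdha to Sdhd, Uqcr genes, Cox4 to Cox8 genes and Atp5 genes. A mean of 10 or more counts over the 17 dorsal hippocampus libraries was also required. Of 24985 symbols, 84 matched the pattern and 80 met the mean count. They comprise 35 genes of complex I, 4 of complex II, 8 of complex III, 16 of complex IV and 17 of complex V. Ndufa4, which was first assigned to complex I and is now placed in complex IV, was counted with complex IV. Just inside the limit lay Atp5g2 with a mean of 11.9 counts and Cox4i2 with 13.4. Just outside it lay Cox8b with 9 counts and Cox7b2 with 5.35. Cox8c and Ndufs5 were listed at 0 in every library and were not analysed. The 0 counts of Ndufs5 are not read as absence of expression, and their origin was not tested. The 80 genes all passed the filter on low counts in both experiments. The symbol rule also takes in Cox7a2l and Atp5s, which code for factors of supercomplex assembly and ATP synthase coupling rather than core subunits.

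Oxidative phosphorylation is the set of reactions of the inner mitochondrial membrane that turns the energy of reduced cofactors into ATP. Complex I takes electrons from NADH and complex II from succinate. Complex III passes them on to cytochrome c, and complex IV hands them to oxygen. The proton gradient built by complexes I, III and IV drives complex V, the ATP synthase. Complex II is encoded by nuclear genes throughout, while the other complexes mix nuclear subunits with a few from mitochondrial DNA. Neurons rely on this pathway for ion pumping and synaptic transmission. The nuclear genes are shared by all hippocampal cell types, and several subunits of complex IV have a common isoform and a tissue-restricted one.

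The series concerns ACSS2, an enzyme that makes acetyl-CoA from acetate, in mice of a C57BL6/J background. Exons 3 to 7 of Acss2 were deleted in embryos at the single-cell stage, so the loss was constitutive and present in all cells. The first experiment took the entire hippocampus, dissected freehand, of wild type (WT), heterozygous (Het) and homozygous (KO) home cage mice, with 2 libraries each in batch B0. In the second, 1 mm sections of dorsal hippocampus of WT and KO mice were cut in a brain matrix. These mice came from the home cage (n = 5 WT and n = 5 KO) or were killed 30 min after contextual fear conditioning with 1 shock (n = 3 WT and n = 4 KO). The labels give no age and do not say that libraries are separate animals, so p-values measure the spread between these libraries. The labels name a batch for each library. The WT fear libraries were all of B1. KO fear 1 and 2 were also of B1, and KO fear 3 and 4 of B3. WT home 1 and 2 were of B1 and 3 to 5 of B2, while KO home 1 to 3 were of B2 and 4 and 5 of B3.

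Whole hippocampus libraries held 18814460 to 27293661 counts and dorsal libraries 5362773 to 23412644, where the B1 libraries were the shallowest. Acss2 followed the labels, at 56.2 to 71.3 CPM (the count relative to the TMM-scaled library total) in dorsal WT libraries and 3.87 to 6.04 CPM in dorsal KO libraries. Het libraries held 31.2 and 34.3 CPM. Xist, the RNA of the inactive X chromosome, was read as CPM of the library total without TMM scaling. It lay between 596 and 669.8 CPM in whole WT and Het libraries and at 0.134 and 0.147 CPM in whole KO libraries. Sex therefore cannot be told apart from loss of both Acss2 copies there. In every dorsal library Xist was at most 0.257 CPM. Markers of CA1 and dentate granule cells were present in each group. The libraries do not mark strand. Of the 80 genes, 28 overlap a gene on the other strand, 13 one on the same strand, and 4 have annotated pseudogenes named after them. Counts of these are uncertain to that extent. Pseudogenes under other names were not searched for.

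Promoter sequences were read first, since nuclear respiratory genes are known for binding sites of NRF1, of ETS family factors such as GABP, and of YY1 close to the start of transcription. RefSeq windows of build GRCm38.p6, from 250 bases before to 50 bases after a start, were matched for 65 of the 80 genes. The motif CGCATGCG (NRF1, which reads the same on both strands) occurred in 9 of the 65 genes, or 13.8%, against 2.07% of 27025 genes with such a window. CCGGAAGT (ETS), read on both strands, occurred in 5 of 65, or 7.69%, against 4.31%. AAGATGGC (YY1), read on both strands, occurred in 10 of 65, or 15.4%, against 3.19%. At least 1 of the 3 motifs lay in 22 of the 65, or 33.8%, against 9.03% of all genes. No matches overlapped each other within a gene of the set. A match describes letters only and does not show binding. Of the 52 matched genes that were later found higher in KO fear than in WT fear, 19 held a motif, and of the other 13 genes 3 did. The stretches below hold an NRF1 or ETS match before the start site in genes of complexes I, III, IV and V that rose in that comparison. They were chosen with these values known. Capitals mark the motif, each line runs 5′ to 3′ along the gene, and the position is that of the plus strand of GRCm38.p6. Uqcr11 also holds an NRF1 match that begins 5 bases before the start. The end of its stretch cuts that match, which is left unmarked.
Ndufa11, complex I, chr17:56717662-56717761, plus strand, NRF1 motif beginning 59 bases before the start: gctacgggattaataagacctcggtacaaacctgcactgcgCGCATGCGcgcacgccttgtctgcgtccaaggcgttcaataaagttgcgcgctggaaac
Uqcrh, complex III, chr4:116075071-116075170, minus strand, ETS motif in reverse complement beginning 11 bases before the start: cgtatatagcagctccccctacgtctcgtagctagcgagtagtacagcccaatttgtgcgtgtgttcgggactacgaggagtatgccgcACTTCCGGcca
Uqcr11, complex III, chr10:80406822-80406921, minus strand, ETS motif beginning 66 bases before the start: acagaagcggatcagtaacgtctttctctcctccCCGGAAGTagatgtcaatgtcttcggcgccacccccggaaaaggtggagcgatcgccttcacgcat
Cox6a1, complex IV, chr5:115349059-115349158, minus strand, NRF1 motif beginning 161 bases before the start: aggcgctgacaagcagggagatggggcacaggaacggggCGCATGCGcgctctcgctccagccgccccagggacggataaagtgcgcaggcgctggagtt
Atp5h, complex V, chr11:115419951-115420019, minus strand, ETS motif in reverse complement beginning 39 bases before the start: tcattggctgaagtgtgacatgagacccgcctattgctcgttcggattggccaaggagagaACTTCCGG
Atp5k, complex V, chr5:108434441-108434499, minus strand, NRF1 motif beginning 49 bases before the start: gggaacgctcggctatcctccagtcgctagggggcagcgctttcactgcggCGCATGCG

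Levels were compared between genes per length, as the mean CPM of the 17 dorsal libraries per kb of a principal transcript. The complexes had medians of 137 CPM per kb (I), 116 (II), 171 (III), 191 (IV) and 207 (V). Complex I was led by the accessory subunits Ndufb9 at 387 CPM per kb, Ndufb8 at 241 and Ndufb10 at 223. In complex II, Sdha, the flavoprotein that oxidises succinate, stood at 196 CPM per kb and Sdhb, its iron-sulfur partner, at 147. The membrane anchors Sdhd and Sdhc stood at 85.6 and 34.5. In complex III, the hinge protein Uqcrh (372), Uqcrq (360.3) and Uqcr10 (265) led. In complex IV, Cox4i1 (1075), Ndufa4 (677) and Cox8a (617) led. In complex V, the catalytic beta subunit Atp5b (829.5) was followed by the alpha subunit Atp5a1 (481) and the c-ring gene Atp5g3 (451).

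The isoform pairs were far from even in dorsal hippocampus. Cox4i1 stood at 1075 CPM per kb and Cox4i2, the lung isoform, at 1.3. Cox6a1 stood at 566 and Cox6a2, the heart and muscle isoform, at 4.05. Cox6b1 stood at 315 and the testis isoform Cox6b2 at 4.08. Cox7a2 stood at 268, the related Cox7a2l at 117 and the heart and muscle isoform Cox7a1 at 3.71. Of the 3 genes that encode the same mature c subunit, Atp5g3 stood at 451, Atp5g1 at 49.9 and Atp5g2 at 1.94. Cox4i2, Cox6a2, Cox6b2, Cox7a1 and Atp5g2 were read from few counts, with means of 11.9 to 40.2 over the dorsal libraries. Their differences between groups carry wide errors. Atp5g2 also held only 1.34 to 1.64 CPM in the whole hippocampus libraries, and the origin of its low counts was not tested.

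The 80 genes together took 0.952 to 1.05% of the counts in the 6 whole hippocampus libraries. Their share was wider in the dorsal experiment, and the plot of count shares by library shows each value. Dorsal WT home libraries held 1.16, 1.34, 1.17, 1.35 and 1.49% (1.30 ± 0.14%, SD, n = 5). WT fear libraries held 1.28, 1.02 and 0.977% (1.09 ± 0.16%, n = 3). KO home libraries held 1.95, 1.64, 1.20, 1.58 and 1.44% (1.56 ± 0.28%, n = 5). KO fear libraries held 1.54, 2.00, 1.67 and 1.32% (1.63 ± 0.29%, n = 4). KO fear lay above WT fear in every library, KO home and WT home overlapped, and so did KO fear and KO home. The 2 experiments were normalised separately and their levels were not tested against each other.

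**Figure D1:**
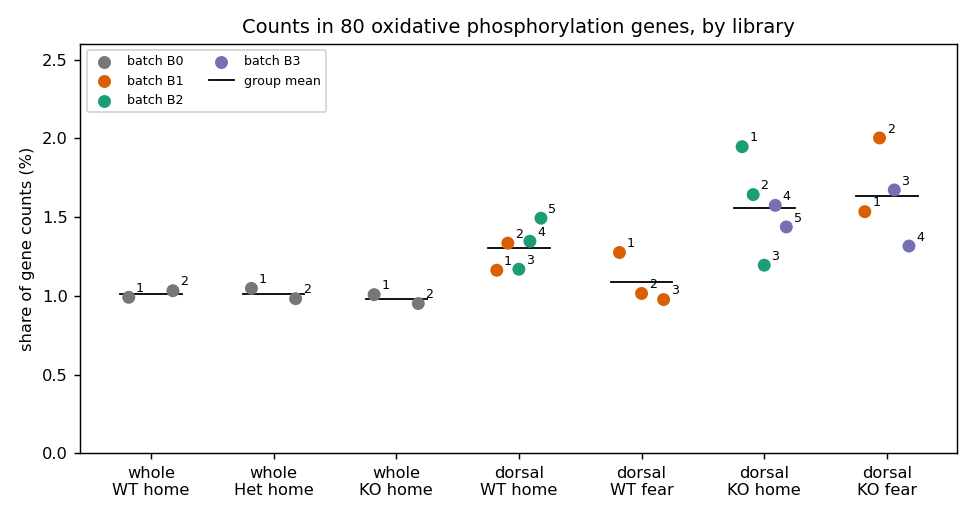
Share of all gene counts (%, y axis, from 0) taken by the 80 oxidative phosphorylation genes in each of 23 libraries, in 7 groups; points are libraries coloured by batch and numbered by replicate, and lines are group means. The dorsal libraries spread from 0.977 to 2.00%, the whole hippocampus libraries from 0.952 to 1.05%.

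The genes of the complexes moved together from library to library. For each gene, log2 CPM was centred on its mean over the 17 dorsal libraries, and the centred values were averaged over the set. This mean was -0.15, -0.53 and -0.57 in WT fear and 0.15, 0.51, 0.31 and -0.13 in KO fear. In KO home it was 0.55, 0.31, -0.17, 0.20 and 0.03, so that KO home 1 and KO home 3 stood farther apart than the means of any pair of groups. In WT home it ran from -0.28 to 0.09. The mean of each complex followed that of the whole set over the 17 libraries, with Pearson's r of 0.978 for complex II and 0.994 to 0.999 for the others. These means share the libraries and the genes of that complex, so the r describes the set and carries no test. After group and batch had been fitted, 53 of the 80 genes had a correlation over 0.9 with the mean of the other 79 across the 17 libraries. The lowest were Atp5g2 at -0.25, Cox6a2 at 0.33, Ndufa12 at 0.38 and Ndufb4c at 0.39. The cytosolic ribosomal proteins, a set that is not part of the pathway, moved along with them, with r of 0.955.

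**Figure D2:**
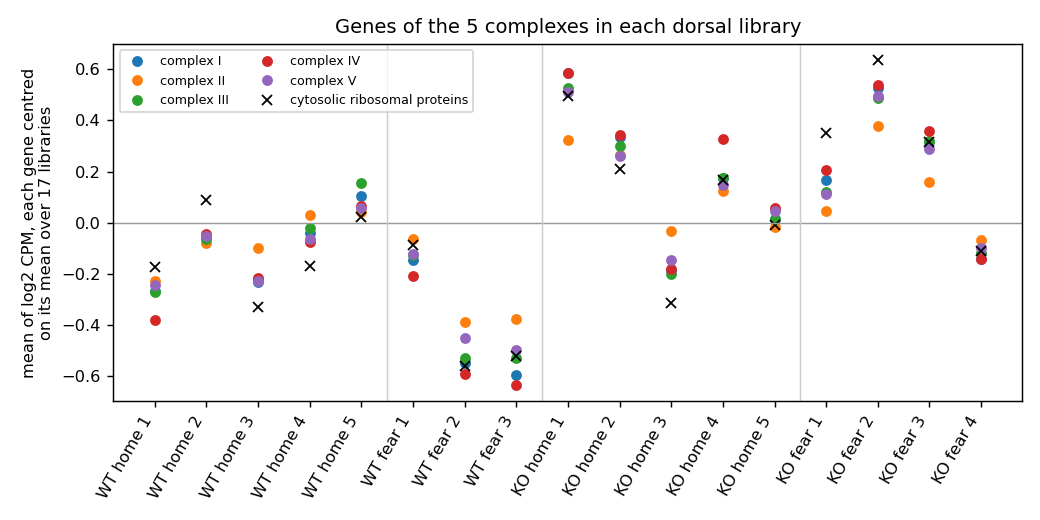
Mean centred log2 CPM (y axis, each gene centred on its mean over 17 dorsal libraries) of the genes of complexes I to V (coloured points) and of cytosolic ribosomal proteins (crosses), per library. The complexes lie close together in each library, lowest in WT fear 2 and 3 and highest in KO home 1 and KO fear 2.

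After fear conditioning, the oxidative phosphorylation genes were higher in KO than in WT dorsal hippocampus. In this comparison, a rise or fall is that of KO fear against WT fear, not of fear against home cage. Of the 80, 63 rose and 0 fell in edgeR's quasi-likelihood test at an adjusted p under 0.05, where 10.2% of the 14808 genes tested rose and 12.1% fell. The median log2 difference of the 80 was 0.71 (interquartile range 0.55 to 0.95), against 0.014 for all genes. In 32 of the 80, all 4 KO fear libraries lay above all 3 WT fear libraries, as they did for 10.7% of all genes. The rises covered 31 of 35 genes of complex I, 3 of 4 of complex II, 5 of 8 of complex III, 13 of 16 of complex IV and 11 of 17 of complex V. In bulk tissue, more cells of a type and more RNA per cell cannot be told apart.

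**Figure D3:**
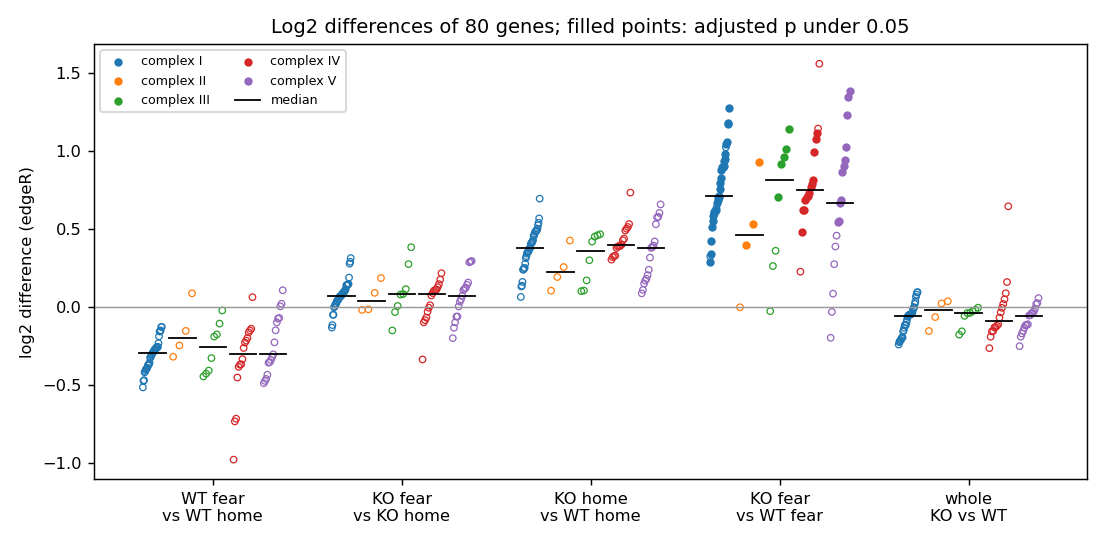
Log2 difference (edgeR, y axis) of each of the 80 genes in 4 dorsal comparisons and in whole hippocampus KO against WT (x axis), by complex; filled points have an adjusted p under 0.05, and black lines are medians. Filled points occur in KO fear against WT fear, where 63 genes are filled.

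In complex I, each of the 7 nuclear core subunits rose, with log2 differences of 0.29 to 0.90 and a median of 0.55. These carry the flavin and the iron-sulfur clusters or shape the quinone site. Ndufs8, which carries iron-sulfur clusters, was at 74.9, 61.8 and 56.7 CPM in WT fear and 106, 138, 130.2 and 87.5 CPM in KO fear. Its difference was 0.90 ± 0.20 (SE, n = 3 and 4, edgeR adjusted p = 0.0155), and every KO fear library was above every WT fear one. Ndufs1, the largest subunit of the complex, was at 251, 215 and 219 CPM in WT fear and 283, 296, 224 and 214 CPM in KO fear. There the groups overlapped, and the log2 difference was 0.29 ± 0.10 (edgeR adjusted p = 0.0401). Of the 28 accessory subunits, which surround the core, 24 rose, with a median log2 difference of 0.82 over the 28.

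The accessory subunit with the smallest p, Ndufa7 (ENSMUSG00000041881.13, chr17:33824572-33838317, plus strand, mm10), was at 56.9, 49.9 and 49.2 CPM in WT fear and 86.1, 138, 94.3 and 72.6 CPM in KO fear. Its home cage libraries held 60.4, 77.9, 64.6, 68.3 and 74.4 CPM in WT and 111, 97.4, 69.7, 92.1 and 76.3 CPM in KO. The groups after fear did not overlap, and WT fear lay below every WT home library. The difference between KO fear and WT fear was 1.06 ± 0.20 on the log2 scale, a fold of 2.08 (edgeR adjusted p = 0.0155). Ndufb7, a subunit on the intermembrane side, was at 66.1, 52.3 and 43.1 CPM in WT fear and 98.9, 161, 96.9 and 68.0 CPM in KO fear, a log2 difference of 1.18 ± 0.25 (edgeR adjusted p = 0.0155). Ndufa11, whose promoter stretch is given above, was at 55.5, 47.9 and 46.2 CPM in WT fear and 83.2, 108, 94.5 and 71.3 CPM in KO fear (0.91 ± 0.18, edgeR adjusted p = 0.0155). In both, KO fear 2 held the highest value and KO fear 4 the lowest of the KO fear libraries. Ndufb5, the other accessory gene among the 10 smallest p-values, had a difference of 0.94 ± 0.21, and the largest in the complex was that of Ndufa2, 1.28 ± 0.32. The 4 complex I genes that did not pass were Ndufb4c (1.03 ± 0.39), Ndufs6 (0.64 ± 0.25), Ndufb4 (0.62 ± 0.35) and Ndufa12 (0.33 ± 0.22). Ndufb4c had a mean of 24.4 counts over the dorsal libraries and overlaps Mroh5 on the same strand.

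In complex II, the 3 smaller subunits passed and Sdha did not. Sdha (ENSMUSG00000021577.14, chr13:74322254-74350280, minus strand, mm10) was at 586, 562 and 533 CPM in WT fear and 569, 561, 552 and 524 CPM in KO fear, with a log2 difference of 0.001 ± 0.083 (edgeR adjusted p = 0.995). Its home cage libraries held 535, 507, 559.5, 588 and 600.5 CPM in WT and 639, 631, 591, 574 and 533 CPM in KO. All 17 libraries thus lay between 507 and 639 CPM. Sdhb (ENSMUSG00000009863.14, chr4:140961203-140979193, plus strand, mm10) was at 151, 109.8 and 104 CPM in WT fear and 184, 306, 196 and 155 CPM in KO fear. Its home cage libraries held 127, 156, 136, 154 and 164 CPM in WT and 222, 198, 144, 186 and 161 CPM in KO. Its log2 difference after fear was 0.93 ± 0.21 (edgeR adjusted p = 0.0155), and the groups did not overlap. Sdhd was at 95.3, 67.5 and 78.3 CPM in WT fear and 105, 129, 123 and 98.6 CPM in KO fear (0.53 ± 0.15, edgeR adjusted p = 0.0233). Sdhc was at 102, 84.5 and 83.2 CPM in WT fear and 107, 133, 121 and 107 CPM in KO fear (0.40 ± 0.12, edgeR adjusted p = 0.0313). The difference between Sdha and the other subunits was not itself tested.

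In complex III, the 5 small subunits, Uqcrh, Uqcr10, Uqcrq, Uqcrb and Uqcr11, rose, with log2 differences of 0.71 to 1.15. Uqcrh, which helps cytochrome c1 meet cytochrome c, was at 181, 130.3 and 123 CPM in WT fear and 271, 401, 258 and 160.1 CPM in KO fear. KO fear 4 fell within the WT fear range and the other KO fear libraries lay above it (1.15 ± 0.26, edgeR adjusted p = 0.0155). Uqcrh has 2 annotated pseudogenes named after it. The larger subunits did not pass: the Rieske iron-sulfur protein Uqcrfs1 differed by 0.36 ± 0.15 and the core proteins Uqcrc2 and Uqcrc1 by 0.27 ± 0.12 and -0.024 ± 0.12. Uqcrc1 was at 200.3, 221 and 201 CPM in WT fear and 172, 232, 285 and 258 CPM in KO fear, where the B1 libraries KO fear 1 and 2 lay below the B3 libraries.

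In complex IV, the nuclear genes encode the shell around the catalytic subunits, which come from mitochondrial DNA and are not analysed here. All 11 common subunits counted here rose, by 0.49 to 1.12 on the log2 scale. Cox6a1 (ENSMUSG00000041697.8, chr5:115345642-115348981, minus strand, mm10) was at 273, 187 and 186 CPM in WT fear and 360.0, 601, 379 and 279.7 CPM in KO fear, and every KO fear library was above every WT fear one. Its home cage libraries held 230.0, 289, 257, 303 and 317 CPM in WT and 474, 415, 283, 349 and 308 CPM in KO. The difference after fear was 1.08 ± 0.23 (edgeR adjusted p = 0.0155). Cox6b1, which links the monomers of the dimeric enzyme, was at 155, 120.3 and 117 CPM in WT fear and 217, 388, 225 and 171 CPM in KO fear (1.12 ± 0.23, edgeR adjusted p = 0.0155). Cox4i1, the most abundant, was at 747, 539 and 514 CPM in WT fear and 886, 1279, 959 and 659.5 CPM in KO fear (0.82 ± 0.22, edgeR adjusted p = 0.0215), with KO fear 4 within the WT fear range. Ndufa4 had a difference of 0.79 ± 0.21 and Cox7a2l one of 0.71 ± 0.20, and both passed.

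Cox8a, a small membrane subunit, differed least among the common ones. It was at 282, 224 and 231 CPM in WT fear and 365, 338, 369.7 and 350.0 CPM in KO fear, which do not overlap (0.49 ± 0.14, edgeR adjusted p = 0.0261). With an offset for transcript length, described below, its sign turned, to -0.13. Of the minor isoforms, Cox6a2 passed. It was at 1.32, 1.53 and 2.15 CPM in WT fear and 3.69, 3.13, 3.98 and 2.94 CPM in KO fear (1.00 ± 0.31, edgeR adjusted p = 0.0318). Cox7a1 (1.56 ± 0.56), Cox6b2 (1.15 ± 0.45) and Cox4i2 (0.23 ± 0.41) did not pass. Cox7a1 was at 0.753, 1.1 and 0.379 CPM in WT fear and 1.37, 3.97, 1.83 and 0.863 CPM in KO fear, where KO fear 2 alone lay above 2 CPM. Cox7a2 passed, with a difference of 0.62 ± 0.22.

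In complex V, the 4 peripheral stalk genes (Atp5f1, Atp5h, Atp5j and Atp5o) and the 4 small membrane subunit genes (Atp5j2, Atp5k, Atp5l and Atp5mpl) rose. Atp5h (ENSMUSG00000034566.10, chr11:115415689-115419962, minus strand, mm10), subunit d of the stalk, was at 56.9, 40.7 and 37.5 CPM in WT fear and 85.3, 158, 79.5 and 51.3 CPM in KO fear. KO fear 2 was the highest, and KO fear 4 fell within the WT fear range. Its home cage libraries held 51.4, 64.5, 45.9, 49.6 and 60.7 CPM in WT and 93.8, 74.2, 44.6, 67.5 and 55.6 CPM in KO. The difference after fear was 1.35 ± 0.28, a fold of 2.55 (edgeR adjusted p = 0.0155). Atp5o, the stalk subunit that confers oligomycin sensitivity, was at 135, 97.5 and 101 CPM in WT fear and 184, 242, 188 and 138 CPM in KO fear (0.91 ± 0.20, edgeR adjusted p = 0.0155). Atp5o overlaps other annotated genes, among them Donson on the same strand and Itsn1 on the other.

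Of the 5 genes of the F1 head and central stalk, 2 rose, Atp5e by 1.39 ± 0.32 and Atp5c1 by 0.67 ± 0.16 on the log2 scale. The catalytic subunits did not pass. Atp5b was at 1529, 1308 and 1308 CPM in WT fear and 1585, 1862, 1654 and 1507 CPM in KO fear, which overlap by 1 library (0.28 ± 0.11, edgeR adjusted p = 0.0794). Atp5a1 was at 1139.8, 1019 and 1008 CPM in WT fear and 1055, 1198, 1231 and 1153 CPM in KO fear (0.088 ± 0.10, edgeR adjusted p = 0.543). Atp5d had a difference of 0.46 ± 0.18. Of the c-ring genes, Atp5g3 passed (0.56 ± 0.18), while Atp5g1 (0.39 ± 0.15) and Atp5g2 (-0.19 ± 0.44) did not. With the length offset, Atp5g3 was at -0.0051. Atp5s had a difference of -0.029 ± 0.15.

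The size of the difference ran with transcript length, among the 80 genes and among all others. Of the 80, the 27 with a transcript under 600 bp had a median log2 difference of 0.92, the 27 from 600 to under 1000 bp 0.72, the 12 from 1000 to under 1500 bp 0.65 and the 11 from 1500 to under 2500 bp 0.43. The 3 from 2500 to under 4000 bp (Sdha, Sdhc and Ndufs1) had a median of 0.29. The other genes of these classes had medians of 0.65, 0.53, 0.36, 0.15 and -0.038, and genes of 4000 bp and over one of -0.24. In each class the median of the oxidative phosphorylation genes was above that of the other genes. When each library was given an offset from a curve of log ratio against transcript length, 25 of the 80 rose, all among the 63, against 6.19% of all genes, and the median was 0.26. Of the 63, 5 had a difference below 0 with this offset: Cox8a (-0.13), Ndufa6 (-0.018), Cox7c (-0.0085), Ndufa1 (-0.0065) and Atp5g3 (-0.0051). The 25 were 13 genes of complex I, 2 of complex II (Sdhb and Sdhc), 1 of complex III (Uqcrh), 2 of complex IV (Cox6a1 and Cox6b1) and 7 of complex V. Among these 25, the largest differences were those of Atp5h (0.73 ± 0.16, edgeR adjusted p = 0.0169) and Ndufa13 (0.70 ± 0.16, edgeR adjusted p = 0.0187). What gives libraries unequal length curves was not tested.

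**Figure D4:**
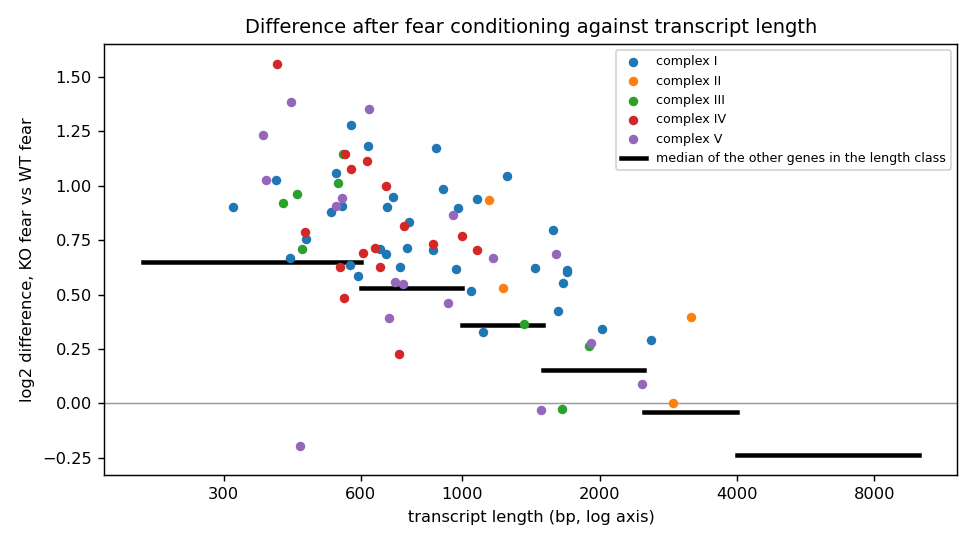
Log2 difference of KO fear against WT fear (y axis) for the 80 genes, by complex, against transcript length in bp (x axis, log scale); black bars are the medians of the other genes in 6 length classes. The medians of the other genes run from 0.65 under 600 bp to -0.24 at 4000 bp and over.

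Other gene sets moved between the same libraries, where 10.2% of all genes rose and 12.1% fell. Of 79 cytosolic ribosomal protein genes tested, 57 rose and 0 fell, with a median of 0.84. Of the 10 ependymal markers, 8 rose, with a median of 3.41; their summed level was 12.8 to 16.1 CPM in WT fear and 35.3 to 90.4 CPM in KO fear, and 3 of the 10 were at 0 in some WT fear library. Of the 15 oligodendrocyte markers, 9 rose, with a median of 0.94; their sum was 4107 to 5493 CPM in WT fear and 6948 to 10876 CPM in KO fear, with none at 0. Of the 10 choroid plexus markers, 6 rose, and their sum was 53.7 to 152 CPM in WT fear and 106 to 530 CPM in KO fear, with 2 at 0 in some WT fear library. Of the 10 CA1 markers, 7 fell and 1 rose, and their sum was 976 to 1563 CPM in WT fear and 634 to 1351 CPM in KO fear, with none at 0. Of the other lists, 3 of 13 CA2 and CA3 markers rose, 4 of 10 dentate granule cell markers fell, and 3 of 10 astrocyte, 1 of 10 microglia and 1 of 10 endothelial and mural markers rose. Of 10 interneuron markers 3 rose and 1 fell, of 10 pan-neuronal markers 2 rose and 3 fell, and of 10 markers of thalamus and neocortex 1 rose and 1 fell. A count of 1 of 10 is near the share over all genes. Over the 17 dorsal libraries, the mean of the 80 genes had Pearson's r of 0.84 with that of the microglia markers and -0.70 with that of the dentate granule cell markers, which share library and depth with it. The part of these cell types in the differences of the oxidative phosphorylation genes was not tested.

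The call rested on 3 libraries. Without WT fear 2, without WT fear 3 or without KO fear 2, 0 of the 80 genes passed, though the median log2 difference was still 0.64, 0.65 and 0.62, and 66, 63 and 58 genes had an unadjusted p under 0.05. In those 3 fits edgeR called 1 or 2 genes of the whole table. The other 14 fits that left out 1 library called 50 to 69 of the 80. Within batch B1 alone, which holds WT fear 1 to 3 with KO fear 1 and 2, 60 of the 78 that passed the filter rose, 57 of them among the 63, against 8.42% of all genes. DESeq2 called 64.

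**Figure D5:**
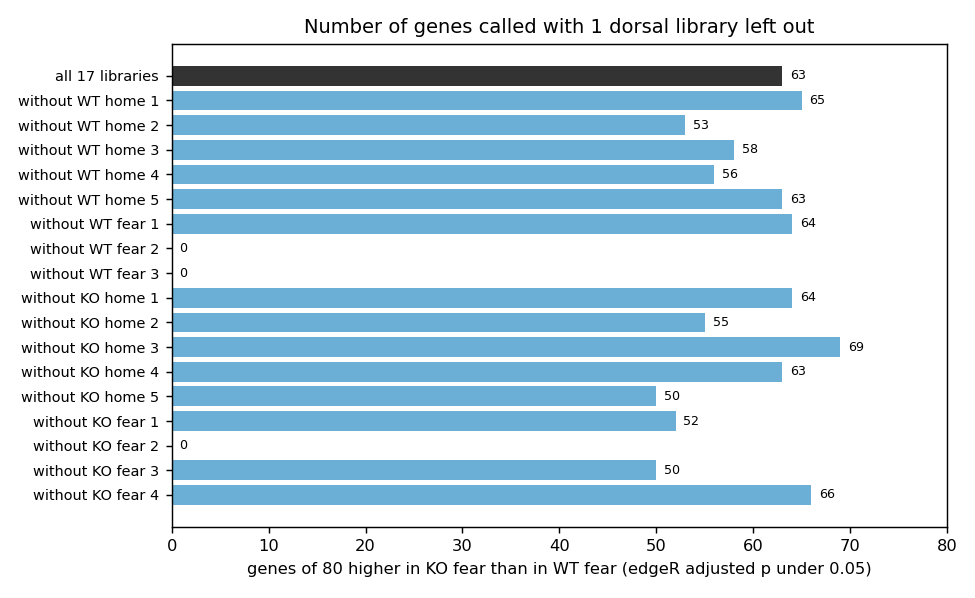
Number of the 80 genes that rose in KO fear against WT fear (x axis, from 0) with all 17 dorsal libraries (dark bar) and with each dorsal library left out (blue bars). The count is 63 with all libraries and 0 without WT fear 2, WT fear 3 or KO fear 2.

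In the home cage, the 80 genes all had a positive difference of KO against WT dorsal hippocampus, but 0 passed the test after adjustment, where 0.00675% of all genes did. The median was 0.39 (range 0.067 to 0.74), against -0.019 for all genes. Unadjusted p-values were under 0.05 for 46 of the 80 and for 11.3% of all genes. Medians by complex were 0.38 (I), 0.23 (II), 0.36 (III), 0.40 (IV) and 0.38 (V). In 2 of the 80 all KO home libraries lay above all WT home libraries, as in 1.71% of all genes. Cox8a had the smallest p. It was at 228, 298, 317, 331 and 344 CPM in WT home and 512, 436, 347, 419 and 379.6 CPM in KO home, which do not overlap (0.43 ± 0.12, edgeR adjusted p = 0.44). Ndufa11 was at 56.8, 72.2, 65.7, 73.5 and 79.0 CPM in WT home and 121, 102, 72.7, 91.2 and 83.1 CPM in KO home (0.49 ± 0.14, edgeR adjusted p = 0.44). Atp5l, subunit g of the synthase, was at 13.6, 16.3, 12.9, 16.1 and 17.3 CPM in WT home and 29.6, 22.2, 14.3, 15.8 and 16.8 CPM in KO home (0.53 ± 0.16, edgeR adjusted p = 0.44). In Ndufa11 and Atp5l the libraries KO home 1 and 2 were the highest and KO home 3 lay within the WT range. The cytosolic ribosomal protein genes had a median of 0.37 in this comparison, with 77 of 79 above 0. Genes other than the 80 with a transcript under 600 bp had a median of 0.25, against 0.46 for the 27 of the 80 in that class. With the length offset the median of the 80 was 0.13. Without KO home 3, 30 of the 80 rose, among 326 genes of the whole table, with a median of 0.54. Without KO home 1, the median was 0.27 and 0 rose. The genes with an unadjusted p under 0.05 went from 46 to 69 without KO home 3 and to 10 without KO home 1. They numbered 12 with only the 2 groups fitted and 4 within batch B2.

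In WT mice, 75 of the 80 genes were lower in fear than in home cage libraries. Of the 80, 0 passed the test (1.63% of all genes passed). The median log2 difference was -0.29, against -0.019 for all genes. Unadjusted p-values under 0.05 were seen for 9 of the 80 and for 20.8% of all genes. With the length offset the median was -0.078 and 26 genes were above 0 in place of 5. Genes other than the 80 with a transcript under 600 bp had a median of -0.34, against -0.36 for the 27 of the 80 in that class. In 8 of the 80 all WT fear libraries lay below all WT home libraries, against 8.45% of all genes. The smallest p-values belonged to Ndufa7 (-0.47 ± 0.20, edgeR adjusted p = 0.188), Cox6a2 (-0.73 ± 0.31) and Atp5g1 (-0.34 ± 0.14). Atp5g1 was at 28.0, 31.9, 37.1, 39.7 and 38.6 CPM in WT home and 26.0, 24.4 and 20.6 CPM in WT fear. There the B1 libraries WT home 1 and 2 were the lowest of the home cage, and WT fear lay below both. Sdha had the smallest p among the genes above 0 (0.091 ± 0.083), followed by Atp5g2 (0.11 ± 0.42) and Atp5s (0.023 ± 0.15), with Atp5a1 and Cox4i2 also above 0. Of the markers, 9 of 15 oligodendrocyte, 5 of 10 ependymal and 3 of 13 CA2 and CA3 genes fell between these groups. Endothelial and mural, choroid plexus, and thalamus and neocortex markers each had 1 of 10 lower, and 4 of 10 CA1 markers rose. The summed ependymal level was 49.9 to 133 CPM in WT home, 28.1 to 134 in KO home and 12.8 to 16.1 in WT fear. The part of these cell types was not tested.

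In KO mice, fear conditioning left no gene of the 80 past the threshold, in edgeR, which called 0% of the 14808 genes there. The median was 0.079, and 61 were above 0. The direction was not stable: without KO fear 3 the median was -0.034 with 29 above 0, with only the 2 groups fitted -0.0074 with 37, and within batch B3 -0.012 with 36. No gene of the 80 had an unadjusted p under 0.05, against 4.82% of all genes. Uqcrb, a small subunit at the quinone site of complex III, had the smallest p. It was at 64.2, 49.8, 31.7, 45.7 and 37.9 CPM in KO home and 61.5, 85.1, 60.7 and 40.0 CPM in KO fear, which overlap (0.39 ± 0.24, edgeR adjusted p = 0.968). Uqcrh (0.28 ± 0.24) and Atp5h (0.29 ± 0.25) came next among the genes above 0, and Uqcrc1 (-0.15 ± 0.10), Atp5g1 (-0.13 ± 0.12) and Cox6b2 (-0.33 ± 0.34) had the smallest p-values below 0.

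The difference between the fear responses of KO and WT, tested as an interaction, passed for 0 of the 80 genes, against 0.479% of all genes. The median was 0.37 and 74 were above 0, with an unadjusted p under 0.05 for 10 of the 80 and for 21.9% of all genes. With the length offset the median was 0.11 and 57 were above 0. Genes other than the 80 with a transcript under 600 bp had a median of 0.40, against 0.45 for the 27 of the 80. Ndufa7 (0.56 ± 0.22, edgeR adjusted p = 0.165), Atp5c1 (0.46 ± 0.19) and Atp5h (0.77 ± 0.33) had the smallest p-values. Sdha (-0.11 ± 0.10), Uqcrc1 (-0.13 ± 0.13) and Atp5s (-0.12 ± 0.17) had the smallest among those below 0. The 4 dorsal comparisons and the interaction share libraries, so they are not separate evidence: the low WT fear libraries enter both the WT fear response and the difference between genotypes after fear. A rise of these genes in KO against WT was thus called after fear and not in the home cage, and the test of that difference did not pass.

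In whole hippocampus of home cage mice, 0 of the 80 genes passed in KO against WT, where 0.0388% of all genes did. The median was -0.053, 63 were below 0 and 10 had an unadjusted p under 0.05, against 6.09% of all genes. With the length offset the median was -0.014, and 31 genes were above 0 in place of 17. In 38 of the 80 both KO libraries lay below both WT libraries, against 21.9% of all genes. With 2 libraries a group, the values were close. Ndufv3, an accessory gene of the NADH arm, held 53.4 and 53.1 CPM in the WT libraries, 48.1 and 46.2 in the Het and 46.8 and 45.3 in the KO libraries (-0.21 ± 0.056, edgeR adjusted p = 0.774). Ndufs8 held 65.2 and 67.2 CPM in the WT libraries, 66.2 and 62.5 in the Het and 57.0 and 58.4 in the KO libraries (-0.20 ± 0.056, edgeR adjusted p = 0.774). Atp5d, the delta subunit of the central stalk, held 142 and 149 CPM in the WT libraries, 139 and 123 in the Het and 125 and 119.7 in the KO libraries (-0.25 ± 0.072, edgeR adjusted p = 0.774). Ndufb3 (0.10 ± 0.056), Ndufs1 (0.10 ± 0.056) and Ndufa9 (0.082 ± 0.052) had the smallest p-values above 0.

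Het against WT gave 0 of the 80 genes past the threshold, in edgeR, which called 0% of all genes, with a median of -0.0065. It turned to 0.019 without WT 2 and to 0.055 without Het 2. An unadjusted p under 0.05 was seen for 8 of the 80 and for 13.9% of all genes. Ndufa3 (-0.20 ± 0.057), Cox8a (-0.19 ± 0.059) and Ndufv3 (-0.18 ± 0.057) had the smallest p-values below 0, and Cox7a2l (0.17 ± 0.059), Cox4i1 (0.17 ± 0.065) and Ndufa8 (0.16 ± 0.06) the smallest above 0. KO against Het gave 0 of the 80 as well, against 0.0841% of all genes, with a median of -0.073 that turned to 0.0033 with the length offset. An unadjusted p under 0.05 was seen for 2 of the 80, Cox7a2l (-0.18 ± 0.059) and Ndufs8 (-0.16 ± 0.056), and for 13.2% of all genes. Atp5j2 (-0.10 ± 0.046) followed, and Cox6b2 (0.91 ± 0.47), Ndufs1 (0.091 ± 0.056) and Cox7a1 (0.35 ± 0.35) had the smallest p-values above 0. DESeq2, like edgeR, called 0 of those it tested among the 80 in the 7 comparisons other than KO fear against WT fear.

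The rest of the pathway was followed through lists of genes outside the symbol rule, again in KO fear against WT fear. Over all genes tested, 10.2% rose and 12.1% fell in this comparison. Of 7 further subunits and carriers tested, 5 rose, but 1 of them, Atp5mpl, also matches the rule and was counted above. The other 4 were Usmg5 (0.89 ± 0.25), Ndufab1 (0.70 ± 0.21), the complex V inhibitor Atpif1 (0.70 ± 0.22) and cytochrome c, Cycs (0.60 ± 0.20). Of 50 assembly factors, 12 rose and 1 fell, with a median of 0.33. Coa6, which helps load copper into complex IV, rose by 1.00 ± 0.21, Surf1, another complex IV factor, by 0.74 ± 0.17, and Foxred1, a complex I factor, by 0.45 ± 0.11. Cox10, which takes part in making haem a of complex IV, fell by 0.39 ± 0.13. Of 21 regulators of mitochondrial biogenesis, 1 rose and 2 fell, where 10.2% of all genes rose and 12.1% fell. Their median was -0.12, and 8 of the 21 were above 0. The coactivators Ppargc1b and Ppargc1a fell, by 0.54 ± 0.16 and 0.47 ± 0.15, and Mterf3, a mitochondrial transcription factor, rose by 0.41 ± 0.13.

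Of 23 genes of the tricarboxylic acid cycle and pyruvate dehydrogenase, 5 rose and 2 fell, with a median of 0.24. For these lists too, the share over all genes was 10.2% higher and 12.1% lower. Suclg1, a subunit of succinyl-CoA ligase, rose by 0.70 ± 0.18, Mdh2, mitochondrial malate dehydrogenase, by 0.42 ± 0.12 and Pdha1, of pyruvate dehydrogenase, by 0.28 ± 0.087. Of 12 genes of exchange across the mitochondrial membranes and of ADP and ATP handling, 4 rose and 0 fell, with a median of 0.34. Creatine kinase B, Ckb, rose by 0.55 ± 0.15, the channel Vdac2 by 0.46 ± 0.13 and the ADP/ATP carrier Slc25a5 by 0.47 ± 0.14. Of 16 glycolysis genes, 3 rose and 3 fell, with a median of 0.16. The enolases went apart, with Eno1 up by 0.43 ± 0.11 and the neuronal Eno2 down by 0.42 ± 0.11, and hexokinase 1, Hk1, fell by 0.53 ± 0.14. The edgeR adjusted p-values of the genes named from these lists lay between 0.0155 and 0.0430.

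Outside the rule, the genes most like the set were found by the correlation of their log2 CPM with the mean of the 80 over 17 dorsal libraries, after group and batch had been fitted. The first 5 were Rps15 (0.996), Rpl13a (0.993), Eef1b2 (0.991), Txndc17 (0.991) and Tbca (0.989). Rps15 and Rpl13a encode cytosolic ribosomal proteins and Eef1b2 an elongation factor subunit. Eef1b2 overlaps Ndufs1 on the other strand. The points share library, depth and RNA sample, and the correlations are given as a description.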

How the data were processed

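Polyadenylated RNA was counted in 23 libraries. The authors deposited unnormalised counts by gene symbol, in a table for each experiment, and these counts were used. STAR, HTSeq 0.9.1, SAMtools 1.1, limma, DESeq2 and mm10 appear, without an order, in the submitters' processing notes. Their roles and the annotation counted were not given in the sources used here.

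Differences were tested by edgeR's quasi-likelihood F test (version 4.0.16 under R 4.3.3), following TMM scaling and filterByExpr (count minimum 10, total minimum 15). Whole hippocampus was fitted on 6 libraries (15453 genes, 3 residual degrees of freedom) and the dorsal experiment on 17 with a batch term (14808 genes, 11 residual degrees of freedom). Adjusted p-values are two-sided, by Benjamini-Hochberg across the whole table, and 0.05 was the threshold. The standard error is the log2 difference divided by the square root of F. DESeq2 1.42.0 was an alternative. Script and test were checked on simulated counts. Lengths are the median of principal GENCODE M21 transcripts, and the length offset came from a lowess curve with a span of 0.3. Log2 CPM used a prior count of 2.

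The members, lists and tests were chosen with earlier results of these data known, and roles within complexes and printed promoters after the values were seen. Genes named are, per complex, the 3 with the highest CPM per kb. Per comparison, they are the 3 with the smallest p in each direction, or up to 10 where more than 6 passed. Isoform sets, the Sdh genes, those nearest the count limit and up to 3 passing genes per list complete the rule. Ribosomal protein genes and cell type markers were used as lists beside the members. Mitochondrially encoded genes and protein sequences are not analysed here.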

Additional observations from a re-analysis of the deposited data

Results flagged for a closer look

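In 159 sets of 4 or 5 libraries, each the values of a named gene, of a complex or of the whole set in 1 group, 2 sets had a library far from the others by Dixon's test. Chance flags about 1 in 20 such sets, or about 8 here. Cox6a2 was at 3.39 CPM in WT home 2, where the other WT home libraries lay between 2.10 and 2.45 CPM. Uqcrc1 was at 259.8 CPM in KO home 3, where the other KO home libraries lay between 294 and 299 CPM. KO home 3 also held the lowest count share of its group.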

How the results depend on the processing

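For KO fear against WT fear, DESeq2, RLE and upper quartile scaling, no filter on low counts and TMM without the 80 genes and ribosomal protein genes called 62 to 65 of the 80 in place of 63. The length offset called 25, with a curve drawn from other genes only (chosen after seeing the data) 27, and within batch B1 with the offset (also chosen after seeing the data) 13 of 78. Cox8a turned to -0.13 with the offset, to -0.078 with the curve from other genes and to -0.12 within B1 with the offset, and Atp5g3 to -0.0051 with the offset. Ndufa6, Ndufa1 and Cox7c also turned, to -0.018, -0.0065 and -0.0085 with the offset and to -0.022, -0.067 and -0.044 within B1 with the offset. The cause of the unequal length curves was not tested. Without a batch term 46 were called, and with only the 2 groups 57. Leaving out 1 library gave 0 to 69 called, and medians of 0.62 to 0.86. For KO home against WT home it gave 0 to 30 called, with 30 without KO home 3, and for the other 6 comparisons 0 in every such fit. Without a batch term, 1 gene of the 80 was called in WT fear against WT home. Replicate numbers were not taken to pair the libraries: the correlations of same-numbered libraries of different groups ran from -0.68 to 0.39. Between KO fear and WT fear they were 0.15, -0.23 and -0.03. Between WT home and KO fear, which were not compared, they were 0.11, 0.15, 0.13 and 0.15. A fit with the replicate block called 0 of the 80 in KO fear against WT fear, with a median of 0.58, and 1 gene of the whole table. It called 0 of the 80 in the other comparisons, as without it. It also took the genes with an unadjusted p under 0.05 from 46 to 2 and the median from 0.39 to 0.21 in KO home against WT home, and those genes from 9 to 0 in WT fear against WT home. In KO fear against KO home it took the genes above 0 from 61 to 70. For KO fear against WT fear, upper quartile scaling moved the median of all genes from 0.014 to 0.068. The rises and falls over all genes went from 1510 and 1788 to 1873 and 1437. WT fear libraries held 5362773 to 9109104 counts, and differences of genes with few counts, such as Cox4i2 and Atp5g2, are imprecise there.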
